A study of Mus musculus with 4 samples.

Results

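The sterol regulatory element binding proteins (SREBPs) and the proteins that control their processing were followed in cultured 1° mouse oligodendroglial cells (OGCs) with and without Zfp276. The set comprised 8 genes, chosen by their symbols from the 53465 genes listed in the count files. They were the transcription factor genes Srebf1 and Srebf2, the genes Scap, Insig1 and Insig2 for the proteins that escort or retain the SREBP precursors, the protease genes Mbtps1 and Mbtps2, and Stard4, a target of the SREBPs for a protein that carries cholesterol between membranes. No receptor for the uptake of lipoproteins was in the set. All 8 were among the 15766 genes with enough counts for a test.

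SREBPs are made as precursors in the membrane of the endoplasmic reticulum (ER), where Scap holds them and senses sterols. When sterols are plentiful, Insig proteins retain the complex of Scap and SREBP. When sterols are scarce, the complex travels to the Golgi, where the site-1 protease (Mbtps1) and the site-2 protease (Mbtps2) release a fragment that enters the nucleus. SREBP2 mainly drives genes of cholesterol synthesis, and SREBP1 mainly those of fatty acid synthesis. Oligodendrocytes (OLs) make most of the cholesterol of their myelin themselves, and so depend on this pathway when they myelinate.

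RNA-Seq was performed on OGCs from the forebrain of mice aged between 2 and 4 days, which were shaken off mixed glial cultures, depleted of microglia and kept for 3 days in differentiation medium. Ctrl cells were Zfp276 flox/flox, with loxP sites around exons 2 to 5 of Zfp276. Zfp276cko (cko) cells carried the same alleles and in addition the Sox10::Cre transgene, whose Cre is active in oligodendroglial cells from the precursor stage on. Per the study's methods, a Rosa26 stopflox tdTomato allele was crossed into the mice used for culture, the mice were of mixed background (C3H x C57Bl/6J), and each of the 2 preparations per genotype pooled cells of 3 mice.

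The libraries held between 21068322 and 26599809 counted reads. Zfp276 itself had 1648 and 2230.3 normalized counts in the 2 ctrl libraries (replicate 1 first) and 489.5 and 502.6 in the 2 cko libraries, so that the labels and the targeted gene matched. Here and below, counts were scaled so that all libraries had the same effective size (normalized counts). The ctrl replicates stood apart from each other more than the cko replicates did. Of 14324 genes with a mean of at least 20 normalized counts, 12.7% differed 2-fold or more within ctrl and 0.307% within cko. Values with ctrl replicate 1 or 2 left out therefore stand beside most results below. Markers of oligodendrocytes were abundant in every library. Of 11 such markers, 10 were lower in both cko libraries than in both ctrl libraries, as were 23.7% of all tested genes. The exception was Sox10, which overlapped, with 18135 and 20744 normalized counts in ctrl and 17805 and 18611 in cko cells. The summed level of the 11 was 255712 and 349835 normalized counts in ctrl and 180557 and 182148 in cko cells. Markers of other cells were also present. The summed level of 10 microglia markers was 29004 and 16306 in ctrl and 24697 and 24327 in cko cells, and that of 8 astrocyte markers lay between 39058 and 45618. Within the astrocyte list the ctrl replicates differed in both directions, with Gfap at 17641 and 8463 and Slc1a3 at 2674 and 6747 in ctrl replicates 1 and 2. The summed level of 8 tested neuron markers lay between 15840 and 25333, most of it from Map2. The neuron markers were far lower in ctrl replicate 1 than in replicate 2, with a median log2 difference of -3.74 (Syt1 had 33.2 and 874, Gad1 78.4 and 2002), and in cko cells Syt1 had 342 and 351 and Gad1 920.2 and 1003. The 7 tested fibroblast and vessel markers summed to 6644 in ctrl replicate 1, 514 in ctrl replicate 2, and 429 and 381 in cko cells, while Cldn5, an endothelial marker, had 0 counts in every library, which allows up to 3 counts each. In bulk RNA, fewer cells of a type and less RNA per cell cannot be told apart, and the part of the cell mixture in the differences below was not tested.

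The promoters of 3 genes of the set are shown because these genes differed most between the genotypes among those with an entry in the RefSeq promoter table (GRCm38.p6). Each window spans 250 bases before and 50 bases after the start site, in the direction of the gene. Capitals mark matches to the core of the sterol regulatory element (SRE), for which the letters TCACNCCA were searched, and to the CCAAT box that NF-Y binds, for which CCAAT was searched, both on either strand. The 2 motifs did not overlap in these windows.
Srebf2, chr15:82147019-82147318, plus strand: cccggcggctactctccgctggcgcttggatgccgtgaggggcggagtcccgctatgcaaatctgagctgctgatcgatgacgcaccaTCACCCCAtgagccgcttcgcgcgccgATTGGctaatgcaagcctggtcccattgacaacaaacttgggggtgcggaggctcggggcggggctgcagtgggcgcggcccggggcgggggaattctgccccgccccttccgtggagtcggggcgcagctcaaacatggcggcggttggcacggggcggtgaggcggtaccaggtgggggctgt
Insig1, chr5:28071162-28071461, plus strand: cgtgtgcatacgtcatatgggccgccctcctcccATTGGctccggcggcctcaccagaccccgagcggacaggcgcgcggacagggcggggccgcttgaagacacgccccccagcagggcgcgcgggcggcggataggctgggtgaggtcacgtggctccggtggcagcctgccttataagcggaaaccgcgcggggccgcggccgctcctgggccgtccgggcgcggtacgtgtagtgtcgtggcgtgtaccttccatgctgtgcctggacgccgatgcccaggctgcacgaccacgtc
Srebf1, the start site farthest along the gene of 3, chr11:60210422-60210721, minus strand: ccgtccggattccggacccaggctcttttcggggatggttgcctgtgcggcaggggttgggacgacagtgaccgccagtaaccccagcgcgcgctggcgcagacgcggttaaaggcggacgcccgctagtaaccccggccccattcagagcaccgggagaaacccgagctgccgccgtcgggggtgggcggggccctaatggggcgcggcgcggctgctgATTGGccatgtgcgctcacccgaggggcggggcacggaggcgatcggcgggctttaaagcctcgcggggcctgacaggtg

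The window of Srebf2 held 1 SRE core, TCACCCCA, which began at position -162 relative to the start site, and a CCAAT box at -135. Those of Insig1 and Srebf1 held no exact match to the SRE core and 1 CCAAT box each, at -216 and -30. Insig1 also had 1 E-box (CACGTG) at -101. Of 12 windows over 7 of the 8 genes, 1 held the SRE core, against 4.36% of 32817 mouse promoter windows, and 5 held a CCAAT box, against 37.4%. The GC box GGGCGG, which Sp1 binds, was found 5 times in the window of Srebf2, 3 times in that of Insig1 and 2 times in that of Srebf1, and 35.6% of all windows held it at least once. A match is a description of the letters and not of a bound site. For comparison, 2 of 18 windows of 15 sterol synthesis enzymes held the SRE core and 14 of the 18 a CCAAT box.

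The genotypes were compared gene by gene with the quasi-likelihood test of edgeR. To be called, a gene needed an adjusted p (Benjamini-Hochberg, over all 15766 genes) no higher than 0.05, a log2 fold change beyond ±0.6 and 20 or more normalized counts on average. Of the 8 genes 0 were called, as were 0% of all genes in either direction. When the p was left unadjusted and the other thresholds were kept, Srebf2, Insig1 and Stard4 were lower in cko cells (3 of 8, against 3.02% of all genes) and 0 of 8 were higher (5.11% of all genes). DESeq2 at the thresholds on adjusted p, fold change and mean called the same 3 genes lower (2.21% of all genes with an adjusted p) and 0 higher (2.92%). Both cko libraries lay below both ctrl libraries for these 3 genes, as for 23.7% of all genes, and above both for Srebf1, as for 26.8% of all genes. The other 4 genes, Scap, Insig2, Mbtps1 and Mbtps2, overlapped between the genotypes.

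**Figure D1:**
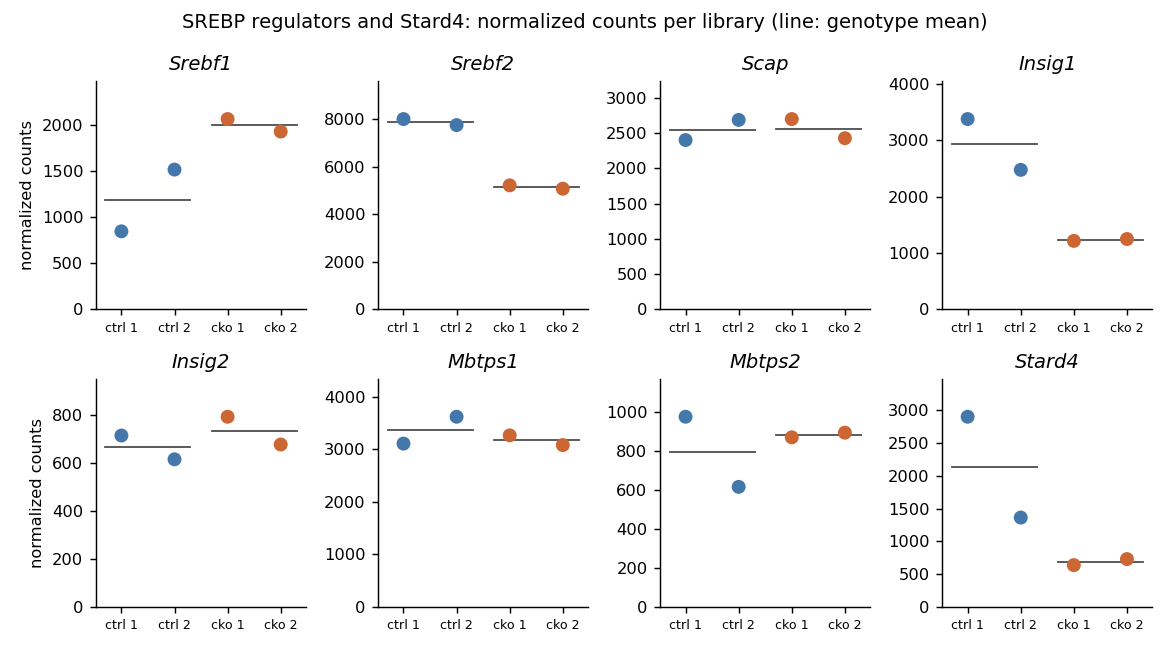
Normalized counts (vertical axes, from 0) of the 8 genes in each library, with ctrl in blue, cko in orange and a line at the mean of each genotype. Srebf2, Insig1 and Stard4 lie lower in both cko libraries than in both ctrl libraries, Srebf1 lies higher, and the other 4 genes overlap.

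Of the transcription factors, Srebf2 (chromosome 15 of mm10, 82147181 to 82205379, plus strand) had 8015 and 7760.1 normalized counts in the 2 ctrl libraries (replicate 1 first) and 5219 and 5078 in the 2 cko libraries. The groups did not overlap, and both pairs of replicates lay close together. Ctrl averaged 7888 ± 180.5 and cko 5149 ± 99.6 (mean ± SD, n = 2 each), or 65.3% of ctrl. The log2 fold change was -0.62 (SE 0.10, 95% interval -0.87 to -0.36, adjusted p = 0.134 by edgeR, unadjusted p = 0.00245). In DESeq2 the value was -0.63 (adjusted p = 0.000276). With single libraries left out the value stayed between -0.65 and -0.59, close to the threshold of 0.6, so that the size of the difference hardly depended on 1 library.

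Srebf1 (chromosome 11, 60199089 to 60222581, minus strand) went the other way. It had 844 and 1515 normalized counts in ctrl and 2063 and 1927 in cko cells. The ctrl replicates differed by 0.84 on the log2 scale, with replicate 1 the lower, while the cko replicates differed by 0.10. Ctrl averaged 1179 ± 474 and cko 1995 ± 96.2 (mean ± SD, n = 2 each). The log2 fold change of 0.76 (SE 0.30, 95% interval -0.06 to 1.58, adjusted p = 0.347 by edgeR) did not pass the test, nor did it with DESeq2 (adjusted p = 0.207). It came to 0.40 when ctrl replicate 1 was left out and to 1.23 when ctrl replicate 2 was, with adjusted p of 0.00169 and 4.94e-08 by edgeR. In the first of these fits it stayed under the fold threshold of 0.6, in the other it was called, and in both the lone ctrl library is taken to vary as little as the cko libraries. Srebf1 has alternative start sites that give isoforms of different strength, and a count per gene does not separate them.

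Since both factors were read in the same library, their ratio does not depend on the scaling of libraries. Per kilobase of exon, the count of Srebf1 was 0.134 and 0.249 of that of Srebf2 in the 2 ctrl libraries (replicate 1 first) and 0.504 and 0.484 in the 2 cko libraries. The ratio was higher in both cko libraries, by 1.43 on the log2 scale or 2.70-fold. The exact permutation test (two-sided, 2 libraries against 2) gave p = 0.333, which is the smallest it can give, and 0.5 after adjustment over the 3 ratios tested.

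Of the proteins that hold SREBPs in the ER, Insig1 and Insig2 are close relatives. Insig1 is itself a target of SREBPs and thus part of a feedback loop, and Insig2 has promoters that respond less to sterols. Insig1 (chromosome 5, 28071363 to 28078662, plus strand) had 3378 and 2475 normalized counts in ctrl and 1213 and 1246 in cko cells. Both cko values lay far below the lower ctrl value. The means were 2926 ± 639 (SD, n = 2) and 1229 ± 23.5 (SD, n = 2), so that 42.0% of the ctrl level was left. The log2 fold change was -1.25 (SE 0.18, 95% interval -1.73 to -0.77, adjusted p = 0.123 by edgeR), and it lay at percentile 1.73 of all tested genes. In DESeq2 the value was -1.27 (adjusted p = 5.96e-06), and with limma voom, weighted per genotype, it was -1.23 (adjusted p = 0.0267), the only 1 of the 8 genes called by that test (0.457% of all genes were called lower). Leaving out ctrl replicate 1 gave -1.01, and leaving out ctrl replicate 2 gave -1.47.

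Insig2 (chromosome 1, 121304353 to 121332589, minus strand) had 714 and 614 normalized counts in ctrl and 792 and 676 in cko cells, and the groups overlapped. Its log2 fold change was 0.14 (SE 0.15, adjusted p = 0.698 by edgeR), with a 95% interval from -0.27 to 0.56. The value was 0.26 with ctrl replicate 1 left out and 0.028 with ctrl replicate 2 left out. The count of Insig1 per kilobase was 5.32 and 4.52 times that of Insig2 in ctrl, and 1.72 and 2.07 times in cko cells. This ratio was 2.60-fold lower in cko cells, and each cko library lay under each ctrl library (exact permutation p = 0.333, two-sided, the smallest possible, and 0.5 adjusted over 3 ratios).

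**Figure D2:**
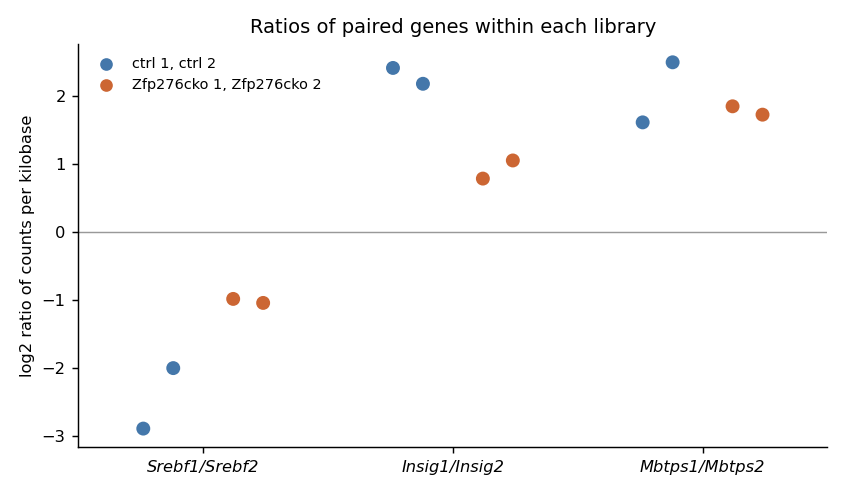
Log2 of the ratio of counts per kilobase of exon within each library (vertical axis) for 3 pairs of genes, with ctrl in blue and cko in orange. Srebf1/Srebf2 is higher and Insig1/Insig2 lower in both cko libraries, and Mbtps1/Mbtps2 overlaps between the genotypes.

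Scap (chromosome 9, 110333288 to 110384950, plus strand), the escort of the SREBPs, had 2404 and 2691 normalized counts in ctrl and 2703 and 2431 in cko cells. The groups overlapped fully, with a log2 fold change of 0.01 (SE 0.11, adjusted p = 0.976 by edgeR) and of -0.0052 in DESeq2. The 95% interval from -0.29 to 0.31 leaves room for changes of up to about that size. A transcript on the opposite strand, 5830462I19Rik, overlaps 13.2% of the exon length of Scap, and how such reads were counted was not tested.

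Among the proteases, Mbtps1 (chromosome 8, 119508156 to 119558735, minus strand) had 3110 and 3621 normalized counts in ctrl and 3267 and 3082 in cko cells. Mbtps2 (chromosome X, 157535371 to 157598715, minus strand) had 977 and 617 in ctrl and 871 and 895 in cko cells. Both genes overlapped between the genotypes, and in Mbtps2 the ctrl replicates spanned the cko values. The log2 fold changes were -0.08 for Mbtps1 (95% interval -0.40 to 0.23, adjusted p = 0.773 by edgeR) and 0.15 for Mbtps2 (95% interval -0.52 to 0.82, adjusted p = 0.815). The direction of either gene turned when ctrl replicate 2 was left out, with 0.018 for Mbtps1 and -0.16 for Mbtps2. With ctrl replicate 1 left out, Mbtps1 came to -0.19 (adjusted p = 0.0562 by edgeR) and Mbtps2 to 0.52 (adjusted p = 0.000645), under the fold threshold. Yy2 lies within Mbtps2 on the same strand and shares 2867 nt with it, or 28.4% of its exon length, and how reads there were assigned was not tested.

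Stard4 (chromosome 18, 33199355 to 33213862, minus strand) had 2904 and 1364 normalized counts in ctrl, and 637 and 729 in cko cells. Both cko libraries lay below both ctrl libraries, although the ctrl replicates themselves were 1.09 apart on the log2 scale, the widest gap of the 8 genes. Ctrl averaged 2134 ± 1089 and cko 683 ± 65.3 (mean ± SD, n = 2 each), which is 32.0% of ctrl. The log2 fold change was -1.64 (SE 0.40, 95% interval -2.72 to -0.56, adjusted p = 0.1996 by edgeR). In DESeq2 the value was -1.66 (adjusted p = 0.00106). It came to -0.996 when ctrl replicate 1 was left out, and to -2.10 when ctrl replicate 2 was.

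**Figure D3:**
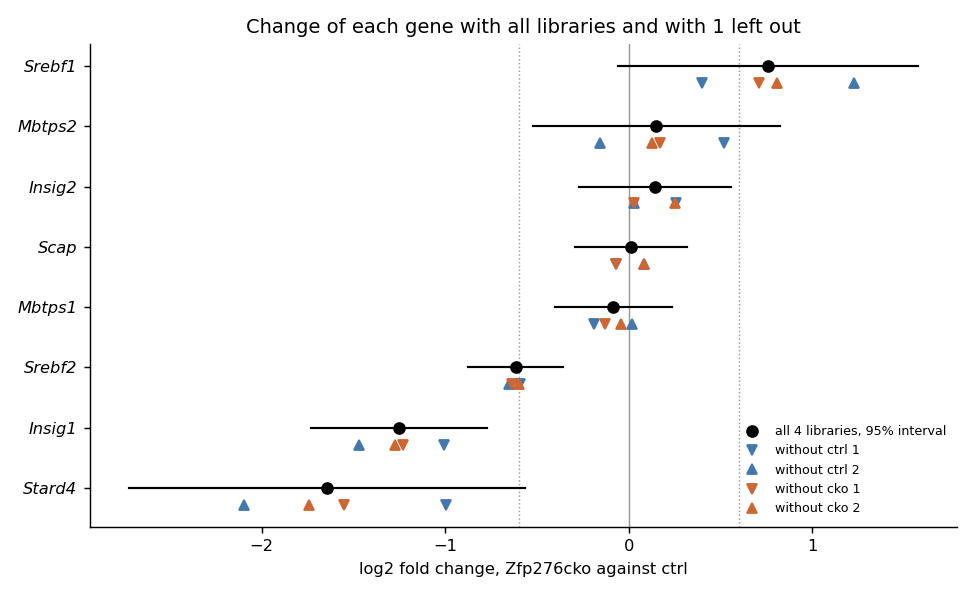
Log2 fold change of cko relative to ctrl (horizontal axis) for the 8 genes, with the 95% interval of edgeR's fit to all 4 libraries (black) and the value with 1 library left out (triangles); dotted lines mark the threshold of 0.6. Stard4, Srebf1 and Mbtps2 move the most when a ctrl library is left out, and Srebf2 stays between -0.65 and -0.59.

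To compare levels between genes, counts were expressed as RPKM, that is, per kilobase of exon and scaled to the effective library size. On this RPKM scale Srebf2 was the most abundant of the 8 in ctrl, with 46.5 ± 1.06 (SD, n = 2), followed by Insig1 with 40.0 ± 8.74, Stard4 with 16.2 ± 8.25, Scap with 14.5 ± 1.15, Mbtps1 with 13.5 ± 1.45, Srebf1 with 8.86 ± 3.56, Insig2 with 8.09 ± 0.85 and Mbtps2 with 3.34 ± 1.07. In cko cells Srebf2 was again highest with 30.3 ± 0.59, and Insig1 followed with 16.8 ± 0.32. Srebf1, with 15.0 ± 0.72, Scap, with 14.6 ± 1.09, and Mbtps1, with 12.7 ± 0.52, came next, and then Insig2 with 8.94 ± 0.996, Stard4 with 5.17 ± 0.49 and Mbtps2 with 3.70 ± 0.07. Over all 4 libraries the ranges of neighbours in the order of mean level overlapped, except that Insig1 lay above Scap and Insig2 above Mbtps2.

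The genes whose levels over the 4 libraries were most like those of the set were found among 14323 genes by the root mean square difference of their log2 values, each centred on the gene's own mean. For Stard4 these were Hmgcs1, an early enzyme of cholesterol synthesis, Acsl3, which activates long fatty acids, and Clec5a, with differences between 0.050 and 0.056. For Insig1 they were mt-Cytb, Mvk and Pdzrn4 (0.037 to 0.070), of which Mvk encodes mevalonate kinase. Those nearest to Srebf2 were Phldb1, Acsl1 and Pde4dip, and those nearest to Srebf1 were Scn1a, Nsl1 and A530083I20Rik, all within 0.030. Of the 100 genes nearest to Stard4, 17 were among the 19 listed enzymes of sterol synthesis, as were 6 of those nearest to Insig1, 1 of those nearest to Srebf2 and 0 of those nearest to Srebf1, a count made after the values were seen. With 4 libraries of 2 genotypes, this likeness is a description.

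The other genes of the pathway were grouped in lists. All 19 enzymes of sterol synthesis, the main targets of SREBP2, were lower in both cko libraries than in both ctrl libraries (23.7% of all genes were), with a median log2 fold change of -1.46 against -0.001 for all tested genes. None of the 19 passed edgeR's test. All 19 were lower by the unadjusted p (3.02% of all genes), and DESeq2 called all 19 lower (2.21% of all genes). The lowest values were those of Lss (-2.10), which closes the sterol ring, and Idi1 (-1.94), and the highest were those of Ebp (-0.70) and Pmvk (-0.68). The ctrl replicates differed by a median of 0.89 in this list, with replicate 1 the higher. Leaving out ctrl replicate 1 gave a median of -0.89, and leaving out replicate 2 gave -1.99. Stard4 and Insig1 lay within the range of these enzymes, and Srebf2 lay just outside it. Of the oligodendrocyte markers 10 of 11, and of the markers of their precursors 3 of 4, were likewise lower in both cko libraries, and their part in the levels of Srebf2, Insig1, Stard4 and the enzymes was not tested.

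Of 14 genes of fatty acid synthesis, the main targets of SREBP1, 11 had values below 0 and 3 above, and the median log2 fold change was -0.41. The median was -0.14 with ctrl replicate 1 left out and -0.64 with ctrl replicate 2 left out. None passed edgeR's test, and 3 were lower by the unadjusted p (3.02% of all genes). DESeq2 called 1 lower (2.21% of all genes), Acly (-0.95), which makes acetyl-CoA for lipid synthesis. Scd1, a desaturase, had the lowest log2 fold change of -1.30, but its 19302 normalized counts in ctrl replicate 1 stood against 4005 in ctrl replicate 2 and 4665 and 4791 in cko cells. Mid1ip1 and Gpam were highest, both at 0.22.

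**Figure D4:**
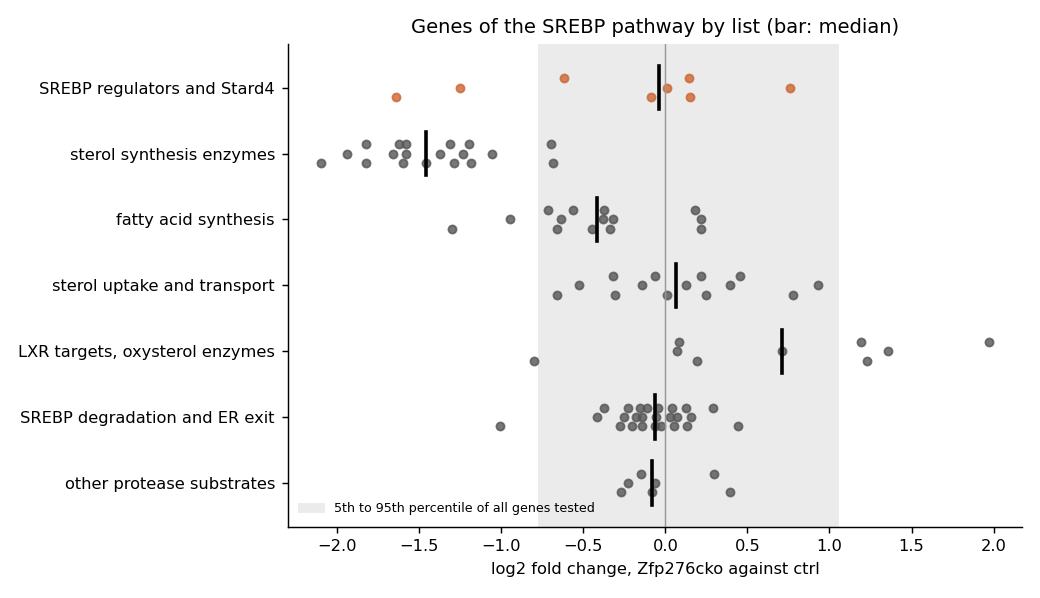
Log2 fold change of cko relative to ctrl (horizontal axis) for the 8 genes (orange) and for 6 lists of genes of the pathway (grey), with a bar at each median; the shaded band holds the middle of all tested genes, from the 5th to the 95th percentile. The sterol synthesis enzymes lie lowest with a median of -1.46, and the list of liver X receptor (LXR) targets and oxysterol enzymes lies highest with a median of 0.71.

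Genes of sterol uptake and transport did not share a direction. Of 14 genes, 5 lay below and 5 above the ctrl range in both cko libraries, against 23.7% and 26.8% of all genes. The median log2 fold change was 0.07, and it was 0.26 with ctrl replicate 1 left out and turned to -0.12 with ctrl replicate 2 left out. None passed edgeR's test. DESeq2 called 1 lower, Vldlr (-0.66, adjusted p = 0.00435), a lipoprotein receptor, and 2 higher (2.21% and 2.92% of all genes). These were Stard5 (0.93, adjusted p = 0.000115), which like Stard4 belongs to the START proteins that carry sterols, and Mylip (0.78, adjusted p = 0.0115), a target of LXR whose product marks lipoprotein receptors for degradation. Lrp8, a relative of Vldlr, had a log2 fold change of -0.52. Stard5 had 482 and 451 normalized counts in ctrl and 867 and 911 in cko cells, and so differed in the direction opposite to Stard4.

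Srebf1 is, besides its own family, a known target of LXR, the nuclear receptor for oxysterols. Of 9 LXR targets and oxysterol enzymes, 6 lay above and 1 below the ctrl range in both cko libraries (26.8% and 23.7% of all genes did), and the median log2 fold change was 0.71. Leaving out ctrl replicate 1 or 2 gave medians of 0.55 and 1.39. None passed edgeR's test, and DESeq2 called 3 higher and 1 lower (2.92% and 2.21% of all genes). Ch25h, which makes an oxysterol from cholesterol and is known to respond to interferon, had 296 and 414 normalized counts in ctrl and 1457 and 1329 in cko cells, a log2 fold change of 1.97 (adjusted p = 0.103 by edgeR and 2.72e-12 from DESeq2). Abca1, a cholesterol exporter, had 4990.2 and 6533 in ctrl and 13138 and 13190.5 in cko cells (1.19, adjusted p = 0.123 by edgeR and 5.09e-07 from DESeq2). The exporter Abcg1 had 1705 and 3910.4 in ctrl and 6547 and 6633 in cko cells (1.23, adjusted p = 0.301 by edgeR and 0.0374 from DESeq2). Each of these was lower in ctrl replicate 1 than in ctrl replicate 2, as Srebf1 was. Of the rest of the list, Nr1h3 and Cyp7b1 were also lower there, and Lpcat3 was nearly equal (1218 and 1228). Cyp46a1, Nr1h2 and Cyp27a1 were higher in ctrl replicate 1. So was Mylip, the LXR target of the uptake list, with 799 and 653.

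Of the receptors themselves, Nr1h2 had a log2 fold change of 0.08, and Nr1h3 had 70.0 and 484 normalized counts in ctrl and 744 and 676 in cko cells (1.36, adjusted p = 0.526 by edgeR). Cyp46a1, which makes another oxysterol and is typical of neurons, was the gene called lower by DESeq2 (-0.80), and Lpcat3 had a value of 0.07. All 16 listed interferon response genes lay above the ctrl range in both cko libraries, and their summed level was 13466 and 5978 normalized counts in ctrl and 96422 and 93937 in cko cells. Within ctrl the summed level was higher in replicate 1, with a median log2 difference of 1.12. Every gene of the list shared this direction except Cxcl10 and Mx2. Cxcl10 had 34.4 in ctrl replicate 1 and 294.8 in ctrl replicate 2, and Mx2 was nearly equal with 588.9 and 599.8. Srebf1, Ch25h, Abca1 and Abcg1 were lower in ctrl replicate 1. This sets 1 library against 1, and a relation of these genes to the interferon genes was not tested. Of 10 microglia markers, 5 had lower and 5 higher values in cko cells (median log2 fold change 0.04), and 3 lay above and 0 below the ctrl range, against 26.8% and 23.7% of all genes. None passed edgeR's test, and DESeq2 called 2 of them higher and 0 lower (2.92% and 2.21% of all genes). The part of these lists and of the neuron markers in the levels of Srebf1 and the LXR targets was not tested.

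**Figure D5:**
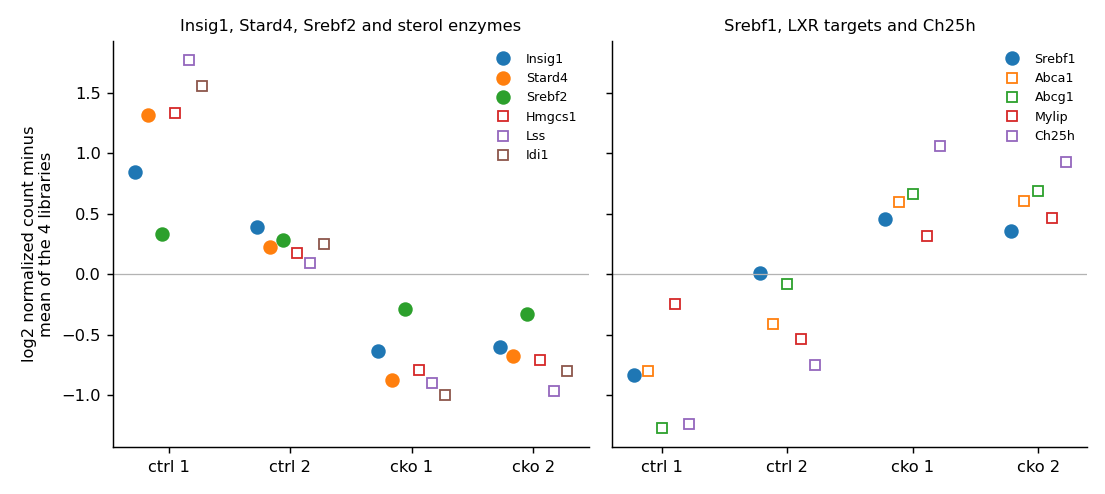
Log2 normalized count minus the gene's mean over the 4 libraries (vertical axis) in each library, for Insig1, Stard4 and Srebf2 with 3 sterol synthesis enzymes (left) and for Srebf1 with LXR targets and Ch25h (right); filled circles are genes of the set. Both cko libraries lie below both ctrl libraries for every gene shown on the left and above both for every gene shown on the right. The genes shown are a choice, and Mylip comes from the sterol uptake list. Of the LXR list, Nr1h2 and Cyp27a1, which overlap between the genotypes, and Cyp46a1, which lies lower, are not shown. Nr1h3, Cyp7b1 and Lpcat3, which lie higher, are not shown either.

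The factors that degrade Insig or SREBP, keep the complex in the ER or carry it to the Golgi were examined next. Of 25 such genes, 10 lay below and 3 above the ctrl range in both cko libraries, against 23.7% and 26.8% of all genes, and the median log2 fold change was -0.06. None passed edgeR's test, and DESeq2 called 1 lower and 0 higher (2.21% and 2.92% of all genes). That gene was Tmem97 (-1.01, adjusted p = 0.00508 from DESeq2), itself a known target of SREBPs, with 558 and 424 normalized counts in ctrl and 245 and 244 in cko cells. The list was drawn up with earlier results of these data known, and whether Tmem97 acts in these steps was not tested. Sec24a, a component of the vesicle coat that takes up Scap, had a log2 fold change of -0.42. Pgrmc1, with 0.44, and Rnf145, a ubiquitin ligase of the ER, with 0.29, had the highest values. The gene 2410131K14Rik, named Spring1 in RefSeq, whose product is needed for the maturation of the site-1 protease, had 0.13 and is named here with its value already known.

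The same proteases also cleave other proteins. Of 7 tested genes for such substrates, 4 lay below and 2 above the ctrl range in both cko libraries, against 23.7% and 26.8% of all genes. The log2 fold changes ran from -0.27 for Creb3l2, a transcription factor of the secretory pathway, and -0.23 for Creb3, to 0.30 for Atp6ap2 and 0.39 for Creb3l1. None of the 7 passed edgeR's test or DESeq2, and the median was -0.08, or -0.22 with ctrl replicate 1 left out.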

How the data were processed

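RNA-Seq of 4 libraries of 1° mouse OGCs was analysed, 2 of ctrl and 2 of Zfp276cko cells, grouped by their titles in the labels. The authors mapped reads of 101 bp from a stranded mRNA kit to mm10 with STAR 2.5.4a and deposited whole-number counts per gene without normalization. The study's methods name HTSeq on Ensembl release 75 for the counting, while the submitters' processing notes name featureCounts 1.5.1. The strand setting is not given in the sources used here. Libraries detected 22017 to 23677 genes.

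Genes were kept with filterByExpr of edgeR 4.0.16 (R 4.3.3), normalized with TMM and tested with the quasi-likelihood test, without covariates, and Benjamini-Hochberg adjustment over 15766 genes. Alternatives were DESeq2 1.42.0, the size factors of DESeq2, limma 3.58.1 (voom with a weight per genotype), other filters, a replicate block and leaving out each library. Standard errors, intervals and floors cover these libraries and not further mice. Exon lengths and positions came from GENCODE M21, whose build is mm10, and promoters from RefSeq. The code was tested on simulated counts. The 8 genes, the lists, the motifs and the rule for named genes (the 8 genes, the 2 lowest and 2 highest of each pathway list, receptors and transporters of the LXR list, the 3 nearest genes of 4 members) were chosen with earlier results of these data known, and patterns already seen there are no independent support. Marker and interferon lists are given by counts and summed levels. The 4 OPC markers summed to 163584 and 122721 in the ctrl libraries (normalized counts), against 86979 and 84678 in the Zfp276cko libraries. Gpr17 was the largest part of each sum, with ctrl values of 113405 and 69766 against Zfp276cko values of 43296 and 41092. Its log2 fold change was -1.12, against -0.59 for Cspg4 and -0.25 for Ptprz1, which were also lower in both Zfp276cko libraries. Pdgfra (-0.13) overlapped between the genotypes, at 10049 and 15501 (ctrl) against 11842 and 11561 (Zfp276cko). The sum therefore mainly follows Gpr17.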

Additional observations from a re-analysis of the deposited data

How the results depend on the processing

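Of all genes, edgeR called 0 lower and 0 higher in Zfp276cko cells, DESeq2 338 and 447, limma voom 72 and 133, and an unadjusted p 476 and 806. With every gene tested that had any count in any library, 8 were called higher. Of the 8 genes of the set, edgeR called 0, DESeq2 3 lower, limma voom 1 lower and an unadjusted p 3 lower. With single libraries left out, between 0 and 1253 genes were called lower and between 0 and 1799 higher, and of the set between 0 and 3 lower and between 0 and 1 higher. The calls came from the fits without a ctrl library, with 951 lower and 1693 higher without replicate 1 and 1253 and 1799 without replicate 2. There the lone ctrl library is taken to vary like the Zfp276cko libraries. In these fits 2 genes of the set, Insig1 and Stard4, were called lower without replicate 1, and Srebf2 as well without replicate 2, when Srebf1 was called higher.

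The sign of Srebf1, Srebf2, Insig1, Insig2 and Stard4 was the same in all 10 refits of each gene. Scap had log2 fold changes of -0.0035 with the size factors of DESeq2 and -0.0052 with DESeq2, and between -0.068 and 0.085 with single libraries left out. Mbtps1 lay between -0.19 and 0.018, and Mbtps2 between -0.16 and 0.52. The ctrl and Zfp276cko libraries share replicate numbers, but the labels do not say that a number marks a shared litter or day, and deviations of replicate 1 from the genotype means correlated at 0.0067 over 14324 genes. With the replicate block, 0 genes were called, and Srebf1, Srebf2, Insig1 and Stard4 had log2 fold changes of 0.82, -0.62, -1.23 and -1.55. The depth gives each of the 8 genes at least 546 counts in a library, so that the number of libraries and the spread of ctrl limit these comparisons.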
